A study of Homo sapiens with 7 samples.

Results

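The 33 genes described here encode the enzymes of glycolysis with their red cell isozymes, the pentose phosphate pathway, and transporters, regulators and secreted factors that respond to low oxygen. They were taken by symbol from the deposited count table, where all 33 have a row among 32738 genes. RNA came from HUDEP-2, a human erythroid progenitor line that was immortalised from cord blood cells. The cells carried lentivirus for CRISPR interference (a repressor fused to an inactive Cas9, which a guide RNA brings to its DNA target) and were sequenced as 3 groups. The groups were a non-targeting guide (3 libraries) and guide 1 and guide 2, each directed at an enhancer of TMCC2 (2 libraries each). All 3 groups were grown with stem cell factor, dexamethasone, doxycycline and erythropoietin and then kept for 72 h in a differentiation medium with insulin, heparin, holo-transferrin, human plasma and serum, and 3 IU/ml erythropoietin. The labels do not say whether the cells were a single clone or whether replicates were separate cultures, and p-values therefore reflect only the spread among these libraries, which may be technical.

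Red cells lose their mitochondria as they mature and then make ATP by glycolysis alone. Hexokinase, phosphofructokinase and pyruvate kinase catalyse the irreversible steps of the pathway, and red cells are known to use the R form of pyruvate kinase, which comes from PKLR. BPGM diverts a glycolytic intermediate into 2,3-bisphosphoglycerate, which lowers the oxygen affinity of haemoglobin, and the pentose phosphate pathway supplies NADPH against oxidative damage. When oxygen is low, hypoxia-inducible factors accumulate and raise many glycolytic enzymes together with genes such as VEGFA, ADM and EGLN3.

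The guide sequences are shown first because they define the groups. All are given 5′ to 3′ as in the labels, and their genome positions were not analysed here.
non-targeting guide: atcgcgaggacccgttccgcc
guide 1: gtcgtgctgcaggtgaagtg
guide 2: ccatccttcagagtaaacag

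The 250 bases before the transcription start of PKLR and PKM and of LDHA and LDHB are shown. These isozyme pairs had unequal RNA levels in every library, as did the other isozyme families, and were picked after values were seen. The motif that is marked differs between the pairs. The sequences come from RefSeq (GRCh38.p14) and are printed on the gene's own strand. PKLR and LDHA have 2 annotated starts each, and the more upstream one is shown. In the pyruvate kinase pair, capitals mark AGATAA or TGATAA on either strand, letters that GATA factors can bind.
PKLR (chr1:155301439-155301688, strand -): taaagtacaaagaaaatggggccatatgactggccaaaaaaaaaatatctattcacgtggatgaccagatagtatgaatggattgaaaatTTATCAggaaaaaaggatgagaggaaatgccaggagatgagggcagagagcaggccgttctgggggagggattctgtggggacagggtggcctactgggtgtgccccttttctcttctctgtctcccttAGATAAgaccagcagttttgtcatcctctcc
PKM (chr15:72231191-72231440, strand -): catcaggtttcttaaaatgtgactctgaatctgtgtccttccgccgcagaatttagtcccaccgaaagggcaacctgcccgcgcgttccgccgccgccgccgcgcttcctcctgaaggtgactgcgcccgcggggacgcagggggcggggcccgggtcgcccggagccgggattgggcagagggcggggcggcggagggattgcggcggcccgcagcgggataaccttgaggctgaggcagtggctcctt
In the lactate dehydrogenase pair, capitals mark ACGTG or GCGTG on either strand, the core of the hypoxia response element, which lies within the E-box CACGTG where the latter is present.
LDHA (chr11:18394313-18394562, strand +): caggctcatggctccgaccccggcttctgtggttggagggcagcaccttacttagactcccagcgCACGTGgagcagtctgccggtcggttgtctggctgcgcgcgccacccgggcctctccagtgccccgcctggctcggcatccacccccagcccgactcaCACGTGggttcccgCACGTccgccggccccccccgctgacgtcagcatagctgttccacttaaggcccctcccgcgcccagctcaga
LDHB (chr12:21657843-21658092, strand -): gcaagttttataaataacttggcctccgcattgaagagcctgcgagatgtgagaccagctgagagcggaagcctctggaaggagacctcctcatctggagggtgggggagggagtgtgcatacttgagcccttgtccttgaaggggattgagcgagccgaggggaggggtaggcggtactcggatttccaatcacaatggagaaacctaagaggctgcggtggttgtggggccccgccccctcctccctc

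The PKLR window held 2 GATA matches and the PKM, LDHA and LDHB windows 0. An unmarked CACGTG, which holds the hypoxia core, was also in the PKLR window. The LDHA window held 5 matches to the hypoxia core, counted on both strands so that each CACGTG gives 2, and the LDHB window 0. At the other annotated start, the PKLR window held 0 GATA matches, like PKM, and the LDHA window 1 match to the hypoxia core. RefSeq windows were matched to 29 of the 33 genes, not to SLC16A1, SLC2A3, VEGFA or NDRG1. Of these 29 genes, 21 had the hypoxia core in at least 1 window (72.4%), against 47.4% of all 27305 genes with a window of this length and 67.0% of genes tested here. The E-box was in windows of 7 genes (24.1%; 7.73% of all genes, 12.1% of those tested), and a GATA match in windows of 6 (20.7%; 17.5% of all genes, 10.8% of those tested). The 29 genes had 52 windows, more per gene than the 11063 windows of 7602 tested genes, which raises a share counted by gene. Counted by window, the hypoxia core was in 51.9% of theirs, below the 56.7% of tested genes and above the 43.2% of all windows, and a GATA match was in 13.5%, above the 8.26% of tested genes and below the 14.6% of all windows. The E-box was in 13.5% of their windows, 8.84% of those of tested genes and 6.34% of all. These are matches of letters, and binding was not measured.

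Library totals ran from 9780800 to 11350113 counts. TMCC2, the targeted gene, stood at 832, 839 and 937 in the 3 controls, 229 and 219 under guide 1, and 229 and 260.4 under guide 2, in CPM, and was lower in each guide library than in each control. Its log2 difference was -1.89 with both guides (adjusted p = 4.43e-08, edgeR), -1.96 with guide 1 (adjusted p = 8.58e-07, edgeR) and -1.83 with guide 2 (adjusted p = 1.98e-06, edgeR). TMCC2 is thus 1 of the 2, 3 and 1 genes in turn that passed an adjusted p under 0.05, which make up the backgrounds given below. All 13 erythroid markers were abundant enough to test, and summed to 235762 to 302495 CPM in the non-targeting libraries, 289200 to 293962 with guide 1 and 263786 to 269128 with guide 2. The 10 neutrophil and monocyte markers summed to at most 0.944 CPM in a library (MPO, S100A8 and S100A9 at 0). The 9 lymphocyte markers summed to at most 1.19 CPM. The 8 megakaryocyte and platelet markers summed to 166 to 219 CPM in the controls, 208 to 220.1 with guide 1 and 178 to 194 with guide 2. PF4, PPBP and VWF were at 0, so these sums came from the 5 with counts (GP9, GP1BA, ITGA2B, ITGB3 and TUBB1), of which 2 were tested. The 5 mast cell and basophil markers summed to 9.727 to 11.2 CPM in the controls, 10.65 to 11.03 with guide 1 and 7.481 to 8.307 with guide 2, lower than in the other groups. HDC, MS4A2 and CLC were at 0, so these sums came from the 2 with counts, of which 1 was tested. The part of these markers in the guide 2 results was not tested. The 6 markers of stroma and endothelium summed to at most 0.374 CPM. Among the 7 libraries, non-targeting replicate 1 differed most. Its genes deviated from their median over libraries by a median of 0.216 on the log2 scale, against 0.0721 to 0.117 in the others. Of the 29 genes tested here, 15 had their lowest level in that library (background 26.9% of all tested genes), and their median deviation there was -0.19. For the results that moved most without it, the second value stands beside the first.

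Together the 33 genes took 0.657% to 0.686% of the counts of a library, or 0.853% to 0.928% of the counts left after the globin genes. To compare levels between genes, library-scaled counts (CPM, after TMM) were divided by the median length of the gene's annotated transcripts. On this scale the highest, as mean ± SD over the 7 libraries, were HK1 at 2336 ± 177 CPM per kb, TALDO1 at 1136 ± 50.6, ALDOA at 757 ± 76.8, BPGM at 582 ± 49.9 and GAPDH at 532 ± 60.2 CPM per kb. The ranges of BPGM and GAPDH overlapped within 1 SD. With the longest transcript as the length the same 5 genes led, in the order TALDO1 (599 CPM per kb), BPGM (514), HK1 (426), GAPDH (367) and ALDOA (270.5), so their order depends on the length used. At the other end NDRG1 stood at 1.92 ± 0.954 CPM per kb (SD over 7 libraries), and SLC2A3, ADM, HK2 and EGLN3 had at most 7 counts in any library and were not tested.

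**Figure D1:**
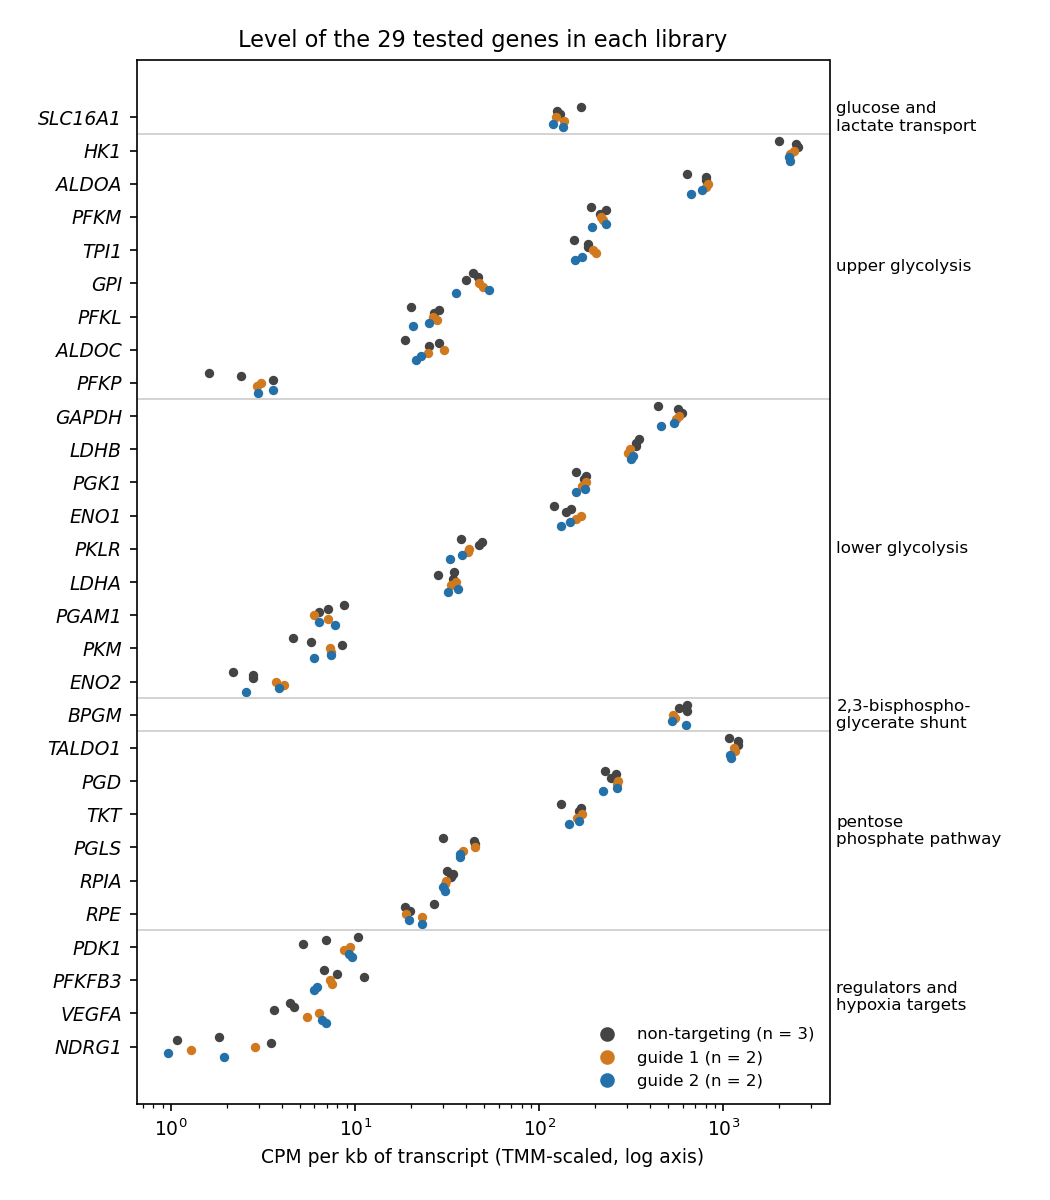
Level of the 29 tested genes on a log axis (TMM-scaled CPM per kb of median annotated transcript length), grouped by role; each point is 1 library, dark for non-targeting (n = 3), orange for guide 1 (n = 2) and blue for guide 2 (n = 2). Levels run from about 1.92 CPM per kb for NDRG1 to 2336 CPM per kb for HK1, and no gene passed the test between groups.

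Glucose enters red cells through facilitative transporters. SLC2A3, the GLUT3 transporter that is typical of neurons, had 5, 4 and 3 in the 3 controls, 2 and 5 under guide 1, and 3 and 6 under guide 2, in counts. SLC2A1, the GLUT1 transporter of red cells, is not among the 33 and was named after its level was seen: it stood at 3303 ± 275 CPM per kb (SD over 7 libraries) by its median transcript length and at 532 by its longest transcript, which is below TALDO1 on that scale. SLC16A1, which carries lactate and pyruvate across the membrane, stood at 184, 137 and 142 in the 3 controls, 135 and 150.2 under guide 1, and 130.3 and 148 under guide 2, in CPM. Non-targeting replicate 1 was the high library of that gene, and the other 6 lay between 130.3 and 150.2 CPM.

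For hexokinase, phosphofructokinase and aldolase, which act early in glycolysis, 1 isozyme held most of the RNA per length. HK1, the hexokinase that phosphorylates glucose in red cells, stood at 1464, 1815 and 1852 in the 3 controls, 1771 and 1674 under guide 1, and 1660.4 and 1677 under guide 2, in CPM. Non-targeting replicate 1 was the low library and the groups overlapped. HK2, the insulin-regulated hexokinase of muscle and fat, had 0, 2 and 1 in the 3 controls, 0 and 5 under guide 1, and 0 and 6 under guide 2, in counts, and was at 0 in libraries of all 3 groups. HK1 thus made up nearly all of the hexokinase RNA per length, with HK2 at 0.00466% or less in each library. The red cell HK1 transcript starts at its own promoter, and the counts per gene do not separate it.

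Of the 3 phosphofructokinase subunits, PFKM, the muscle type, stood at 119, 145 and 133 in the 3 controls, 136 and 138 under guide 1, and 144 and 121 under guide 2, in CPM. PFKL, the liver type, stood at 47.6, 67.5 and 63.8 in the 3 controls, 62.8 and 66.1 under guide 1, and 59.8 and 48.9 under guide 2. PFKP, the platelet type, was the scarcest, at 0.972, 1.44 and 2.15 in the 3 controls, 1.87 and 1.77 under guide 1, and 2.15 and 1.79 under guide 2. In all 3 the groups overlapped, and non-targeting replicate 1 was the lowest library. Per length PFKM held 87.5% to 89.8% of the family, PFKL 9.44% to 11.03% and PFKP 0.759% to 1.46%, in each library. The share of PFKM was a mean of 78.1% with the longest transcript as the length, in the same order.

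ALDOA, the main aldolase of muscle and red cells, stood at 574, 726 and 727 in the 3 controls, 747 and 732 under guide 1, and 690.3 and 601 under guide 2, in CPM. ALDOC, the brain aldolase, stood at 15.5, 23.8 and 21.1 in the 3 controls, 25.5 and 20.7 under guide 1, and 19.0 and 17.9 under guide 2. Non-targeting replicate 1 was low for both, and ALDOA made up 96.4% to 97.2% of the pair per length. TPI1, which interconverts the triose phosphates, stood at 129, 152 and 153 in the 3 controls, 162 and 168 under guide 1, and 141 and 129 under guide 2, and was highest in both guide 1 libraries. GPI, which converts glucose 6-phosphate to fructose 6-phosphate, lay between 26.5 and 39.9 CPM.

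In the lower part of the pathway GAPDH, which makes NADH, was the most abundant per length apart from BPGM, at 568, 736 and 766 in the 3 controls, 741 and 717 under guide 1, and 695 and 589 under guide 2, in CPM. Non-targeting replicate 1 and guide 2 replicate 2 were its low libraries, and the groups overlapped. PGK1, an ATP-producing enzyme, had a narrow range of 131 to 148 CPM. ENO1, the widespread enolase, stood at 77.5, 95.8 and 90.8 in the 3 controls, 109 and 103 under guide 1, and 95.3 and 84.8 under guide 2. ENO2, the neuronal form, stood at 1.68, 2.16 and 2.15 in the 3 controls, 2.86 and 3.18 under guide 1, and 2.99 and 1.98 under guide 2. Guide 1 lay above all controls for both enolases and guide 2 did not. ENO1 held 97.4% to 98.2% of enolase RNA per length.

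Pyruvate kinase RNA came mostly from the red cell and liver gene. PKLR stood at 92.7, 121 and 116 in the 3 controls, 103 and 102 under guide 1, and 94.4 and 80.6 under guide 2, in CPM. Its highest libraries were non-targeting replicates 2 and 3, and non-targeting replicate 1 was below all but guide 2 replicate 2. PKM, the gene of most other tissues, stood at 6.18, 7.84 and 11.4 in the 3 controls, 9.85 and 10.0 under guide 1, and 10.0 and 8.12 under guide 2, with overlapping groups. PKLR counts were 9.44 to 15.4 times those of PKM, and per length PKLR held 83.8% to 89.4% of the pair. PKLR overlaps HCN3, which also has a row in the table: 16.9% of the 50-base windows of the longest coding PKLR transcript are also in HCN3 transcripts, and how such reads were counted is not given in the sources used here.

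Lactate dehydrogenase RNA was mostly LDHB, the heart-type subunit, at 242, 232 and 232 in the 3 controls, 217 and 209.5 under guide 1, and 225 and 218 under guide 2, in CPM. Each guide library lay below each control, by a margin smaller than the range of the controls. LDHA, the muscle-type subunit and a classical hypoxia target, stood at 25.1, 20.5 and 24.9 in the 3 controls, 25.9 and 24.2 under guide 1, and 26.4 and 23.2 under guide 2, with overlapping groups. LDHB held 89.8% to 92.3% of the pair per length, with the largest share in non-targeting replicate 2. LDHA shares 10.1% of its 50-base windows with genes elsewhere and LDHB 2.42%. LDHB also shares 57.3% of its windows with AC010197.2, and ALDOA 88.1% with AC093512.2. These overlap LDHB and ALDOA in turn and have no row.

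BPGM, the enzyme of the 2,3-bisphosphoglycerate shunt, was among the most abundant of the 33, at 1151, 1044 and 1148 in the 3 controls, 962 and 983 under guide 1, and 954 and 1139 under guide 2, in CPM. Guide 1 lay below all controls, whereas guide 2 replicate 2 lay among them. PGAM1, its glycolytic relative that interconverts the phosphoglycerates, ranged from 7.09 to 10.2 CPM. BPGM counts were 112 to 152 times those of PGAM1. This ratio is uncertain, because 43.3% of the 50-base windows of PGAM1 occur exactly in 10 genes elsewhere and whether such reads were counted is not given in the sources used here, while BPGM shares none. Shares with genes elsewhere were also above 10% for SLC2A3 (24.2%), TPI1 (20.8%), GAPDH (13.8%), RPE (11.9%) and LDHA (10.1%). RPE shares a further 25.3% of its windows with KANSL1L, which overlaps it and also has a row.

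**Figure D2:**
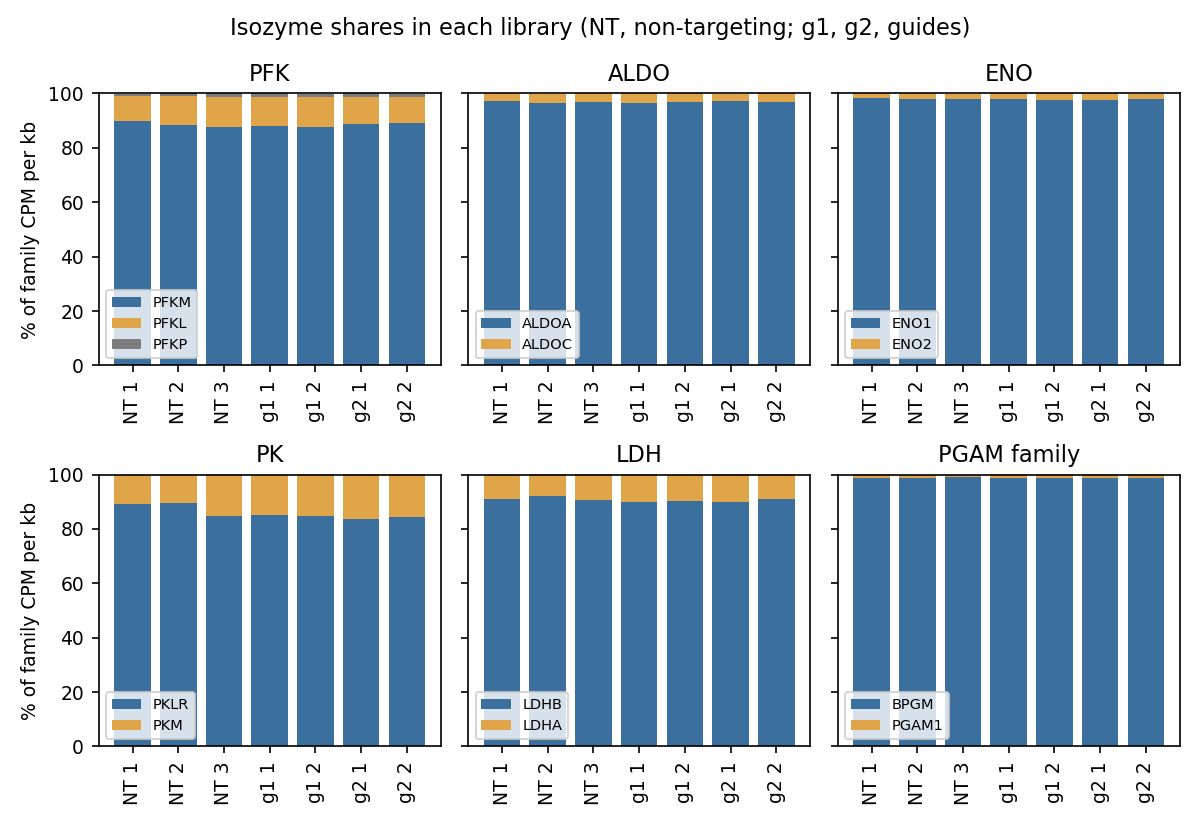
Share of each isozyme in its family's summed CPM per kb, in percent, for the 3 non-targeting (NT), 2 guide 1 (g1) and 2 guide 2 (g2) libraries; bars are stacked to 100%. PFKM, ALDOA, ENO1, PKLR, LDHB and BPGM are the larger part in every library, and the PKLR share runs from 83.8% to 89.4%. BPGM and PGAM1 are related enzymes with different roles, and their shares are uncertain because 43.3% of the 50-base windows of PGAM1 occur in genes elsewhere.

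In the pentose phosphate pathway TALDO1, the transaldolase of its non-oxidative branch, led at 763, 849 and 852 in the 3 controls, 808 and 820.4 under guide 1, and 774 and 780.3 under guide 2, in CPM. Its lowest library was non-targeting replicate 1, and the groups overlapped. PGD, the second NADPH-producing dehydrogenase, lay between 146 and 177 CPM and the transketolase TKT between 253 and 331 CPM. The lactonase PGLS, the isomerase RPIA and the epimerase RPE had means of 34.5, 58.3 and 17.1 CPM. RPIA, TALDO1, LDHB and PGK1 varied least, with coefficients of variation over the 7 libraries of 4.46%, 4.46%, 5% and 5.201%.

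The regulators and hypoxia targets were scarce. PFKFB3, which makes the activator of phosphofructokinase, stood at 13.9, 16.5 and 23.1 in the 3 controls, 15.1 and 15.4 under guide 1, and 12.7 and 12.4 under guide 2, in CPM. PDK1, the mitochondrial kinase that inhibits pyruvate dehydrogenase, stood at 7.51, 5.04 and 3.77 in the 3 controls, 6.80 and 6.35 under guide 1, and 6.73 and 6.99 under guide 2. VEGFA, the vascular growth factor, stood at 4.86, 5.13 and 3.99 in the 3 controls, 6.99 and 5.98 under guide 1, and 7.20 and 7.65 under guide 2. Non-targeting replicate 3 was highest for PFKFB3 and lowest for PDK1 and VEGFA, and only VEGFA had all 4 guide libraries above the controls. NDRG1, a stress-response gene, had 6 to 19 counts. ADM, which encodes the peptide adrenomedullin, had 1, 2 and 0 in the 3 controls, 7 and 6 under guide 1, and 1 and 2 under guide 2, in counts. EGLN3, an oxygen-sensing prolyl hydroxylase induced by hypoxia, had 1 count in guide 2 replicate 1 and 0 elsewhere, where a count of 0 allows up to 0.265 to 0.323 CPM (3 counts, counting error only).

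The first comparison asks whether lowering TMCC2 through its enhancer moved these genes. With both guides together, 0 of the 29 tested genes passed an adjusted p under 0.05 (edgeR quasi-likelihood test; background 0.0196% of 10212 genes), and 1 had an unadjusted p under 0.05 (background 4.19%). DESeq2 also called 0. The median log2 difference of the 29 was 0.0049, beside -0.015 over all genes, with 15 positive (51.7%; background 46.1%), or 18 positive with total counts in place of TMM and 19 with totals less the globin genes. Without non-targeting replicate 1 the median was -0.047, with 11 positive. The 95% interval lay wholly within a change of 1 on the log2 scale for 26 of the 29, and within 0.5 for 22. In bulk RNA, fewer cells of a type and less RNA per cell cannot be told apart.

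VEGFA had the smallest unadjusted p of the list. It had a mean of 4.66 ± 0.599 CPM (SD, n = 3) in the controls and 6.95 ± 0.705 CPM (SD, n = 4) with a guide, and each guide library was above each control. This is a log2 difference of 0.57 (SE 0.19, 95% interval 0.17 to 0.96), and it did not pass adjustment (unadjusted p = 0.00838, adjusted p = 0.998, edgeR). Its counts were low, at 55, 57 and 37 in the 3 controls, 71 and 64 under guide 1, and 77 and 81 under guide 2. PFKFB3 stood lower, with a mean of 13.9 ± 1.57 CPM (SD, n = 4) and a control mean of 17.8 ± 4.73 CPM (SD, n = 3), a log2 difference of -0.36 (SE 0.17, 95% interval -0.72 to 0.00044), with overlapping groups (unadjusted p = 0.0502, adjusted p = 0.998, edgeR). Without non-targeting replicate 3 the PFKFB3 value was -0.13.

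PKLR stood at 94.9 ± 10.2 CPM (SD, n = 4) with a guide and 109.9 ± 15.0 CPM (SD, n = 3) without, a log2 difference of -0.22 (SE 0.11, 95% interval -0.46 to 0.025). It was not called with all 7 libraries (unadjusted p = 0.0753, adjusted p = 0.998, edgeR). Without non-targeting replicate 1, which had the lowest control value, PKLR was called lower at -0.32 (SE 0.073, adjusted p = 0.0256, edgeR), against an adjusted p of 0.8047 or more under the other alternatives. It was the 1 gene of the 29 called there, beside 53 of all 10107 genes tested then. Without non-targeting replicate 2 the PKLR value was -0.14. BPGM had a log2 difference of -0.14 (SE 0.091, 95% interval -0.34 to 0.05) and was not called (unadjusted p = 0.135, adjusted p = 0.998, edgeR). Groups did not overlap for 3 of the 29 (10.3%; background 5.4%), none of them called. VEGFA lay above all controls (background 3.03%), and LDHB (-0.12) and RPIA (-0.10) lay below them (background 2.37%).

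By role, the 8 tested genes of upper glycolysis had 6 positive values and a median of 0.035, with HK1 at -0.013 (SE 0.10). Without non-targeting replicate 1 the direction turned: 2 of the 8 (GPI and PFKP) were positive, and HK1 was at -0.11 (SE 0.051). The 9 of lower glycolysis ran from -0.22 (PKLR) to 0.46 (ENO2), with GAPDH at -0.013 (SE 0.11), or -0.13 (SE 0.060) without non-targeting replicate 1. The 6 genes of the pentose phosphate pathway lay between -0.10 (RPIA) and 0.054 (PGD), and all 6 intervals were within 0.5. The 4 tested regulators and hypoxia targets had 2 positive and 2 negative values, and none of their intervals was within 0.5. PDK1 was at 0.29 (SE 0.22), or 0.59 (SE 0.21, adjusted p = 0.238, edgeR) without non-targeting replicate 1.

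With guide 1 alone, 0 of the 29 were called (background 0.0294%), and 0 had an unadjusted p under 0.05 (background 4.78%); DESeq2 called 0, with no adjusted p for 10 of them. Positive values were found for 19 of 29 (65.5%; background 48.5%), with a median of 0.079 against -0.0083 over all genes. All 8 tested genes of upper glycolysis were positive, from 0.01 for HK1 to 0.28 for PFKP. Both guide 1 libraries lay above all controls for 7 genes (VEGFA, ENO1, ENO2, TPI1, ALDOA, GPI and PGD; 24.1%, background 11.3%) and below them for BPGM, LDHB and RPIA (10.3%, background 10.3%). This tilt moved with 1 library: without non-targeting replicate 1 the median was -0.0082, with 14 positive, and 5 of the 8 genes of upper glycolysis were positive.

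The 4 genes of smallest unadjusted p with guide 1 were VEGFA, ENO1, BPGM and TPI1. VEGFA had a log2 difference of 0.47 (SE 0.22, 95% interval -0.0015 to 0.94) (unadjusted p = 0.0507, adjusted p = 0.877, edgeR). ENO1 averaged 106 ± 4.03 CPM (SD, n = 2), compared with a control mean of 88.0 ± 9.49 CPM (SD, n = 3), a log2 difference of 0.26 (SE 0.13, 95% interval -0.0044 to 0.53), and was not called (unadjusted p = 0.0534, adjusted p = 0.877, edgeR). BPGM averaged 972 ± 14.2 CPM (SD, n = 2), compared with a control mean of 1114 ± 60.7 CPM (SD, n = 3), at -0.20 (SE 0.11). TPI1 was at 0.19 (SE 0.12). ADM, which was too scarce to test, had 7 and 6 counts with guide 1 and at most 2 in any other library.

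With guide 2 alone, 0 of the 29 were called (background 0.00979%, which is TMCC2 alone), and DESeq2 also called 0. Of the 29, 3 had an unadjusted p under 0.05 in edgeR (10.3%, background 2.75%). VEGFA averaged 7.42 ± 0.315 CPM (SD, n = 2), a log2 difference of 0.66 (SE 0.22, 95% interval 0.20 to 1.13) (unadjusted p = 0.008, adjusted p = 0.999, edgeR). PFKFB3 averaged 12.5 ± 0.249 CPM (SD, n = 2), a log2 difference of -0.50 (SE 0.20, 95% interval -0.94 to -0.061), below all controls (unadjusted p = 0.0283, adjusted p = 0.999, edgeR). PKLR averaged 87.5 ± 9.78 CPM (SD, n = 2), a log2 difference of -0.33 (SE 0.14, 95% interval -0.62 to -0.037), with guide 2 replicate 1 above the lowest control (unadjusted p = 0.0298, adjusted p = 0.999, edgeR). PDK1 was at 0.32 (SE 0.26), or 0.63 (SE 0.24, adjusted p = 0.179, edgeR) without non-targeting replicate 1.

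Positive values with guide 2 were found for 9 of 29 (31%; background 44.7%), or 13 and 14 with these other scalings, and the median was -0.065 against -0.022 over all genes. All 6 pentose phosphate genes were negative, from -0.11 to -0.0024. Groups did not overlap for 4 genes (13.8%; background 15%), VEGFA above the controls (background 8.16%) and LDHB, RPIA and PFKFB3 below them (background 6.86%). Without non-targeting replicate 1, PKLR (-0.44, adjusted p = 0.00724, edgeR) and PFKFB3 (-0.64, adjusted p = 0.0332) were called lower, against adjusted p of at least 0.9995 and 0.9995 under the other alternatives, beside 128 of all genes. Without non-targeting replicate 3 the PFKFB3 value was -0.27. The median moved to 0.0043 without guide 2 replicate 2, with 15 positive.

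**Figure D3:**
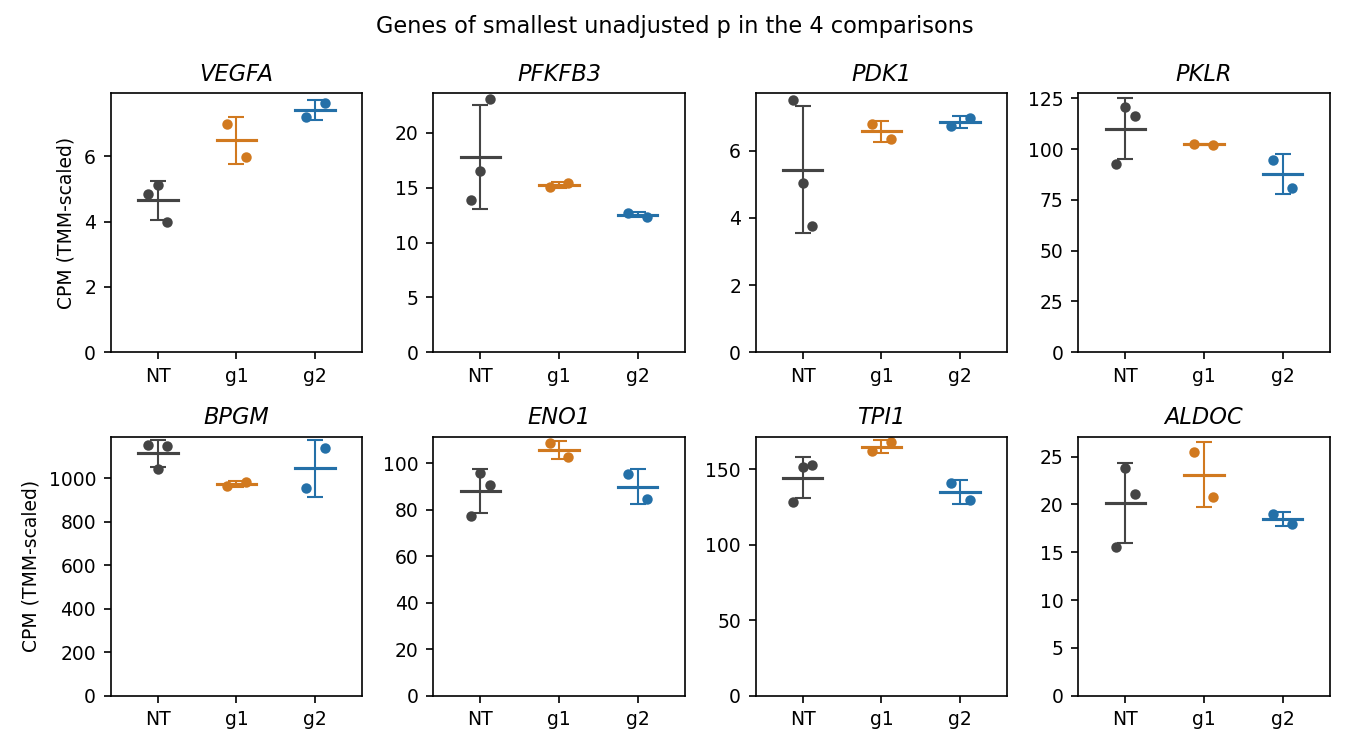
TMM-scaled CPM of the 8 genes that had the smallest unadjusted p in any of the 4 comparisons; points are libraries, horizontal lines are group means and error bars are SDs (NT, non-targeting, n = 3; g1 and g2, guides, n = 2 each). VEGFA lies between 3.99 and 5.13 CPM in the controls and at 5.98 CPM or more in each guide library, while in each other panel at least 1 guide group overlaps the controls.

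Both guides were compared with the same 3 controls, so their values are given side by side and not as support for each other. VEGFA was at 0.47 and 0.66 with guides 1 and 2, PDK1 at 0.26 and 0.32, LDHA at 0.093 and 0.078, and PFKFB3 at -0.22 and -0.50. PKLR was at -0.10 and -0.33, BPGM at -0.20 and -0.091, ENO1 at 0.26 and 0.033, and TPI1 at 0.19 and -0.10. Without non-targeting replicate 1, with guides 1 and 2 in turn, PDK1 was at 0.56 and 0.63, LDHA at 0.15 and 0.13 and TPI1 at 0.12 and -0.17. In that fit PFKFB3 was at -0.37 and -0.64, PKLR at -0.21 and -0.44, VEGFA at 0.49 and 0.69 and BPGM at -0.17 and -0.065. ENO1 was at 0.18 and, with the sign turned, -0.051. GAPDH moved from 0.079 and -0.10 to -0.044 and -0.23 (adjusted p = 0.0921 for guide 2, edgeR), which turned its sign with guide 1.

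**Figure D4:**
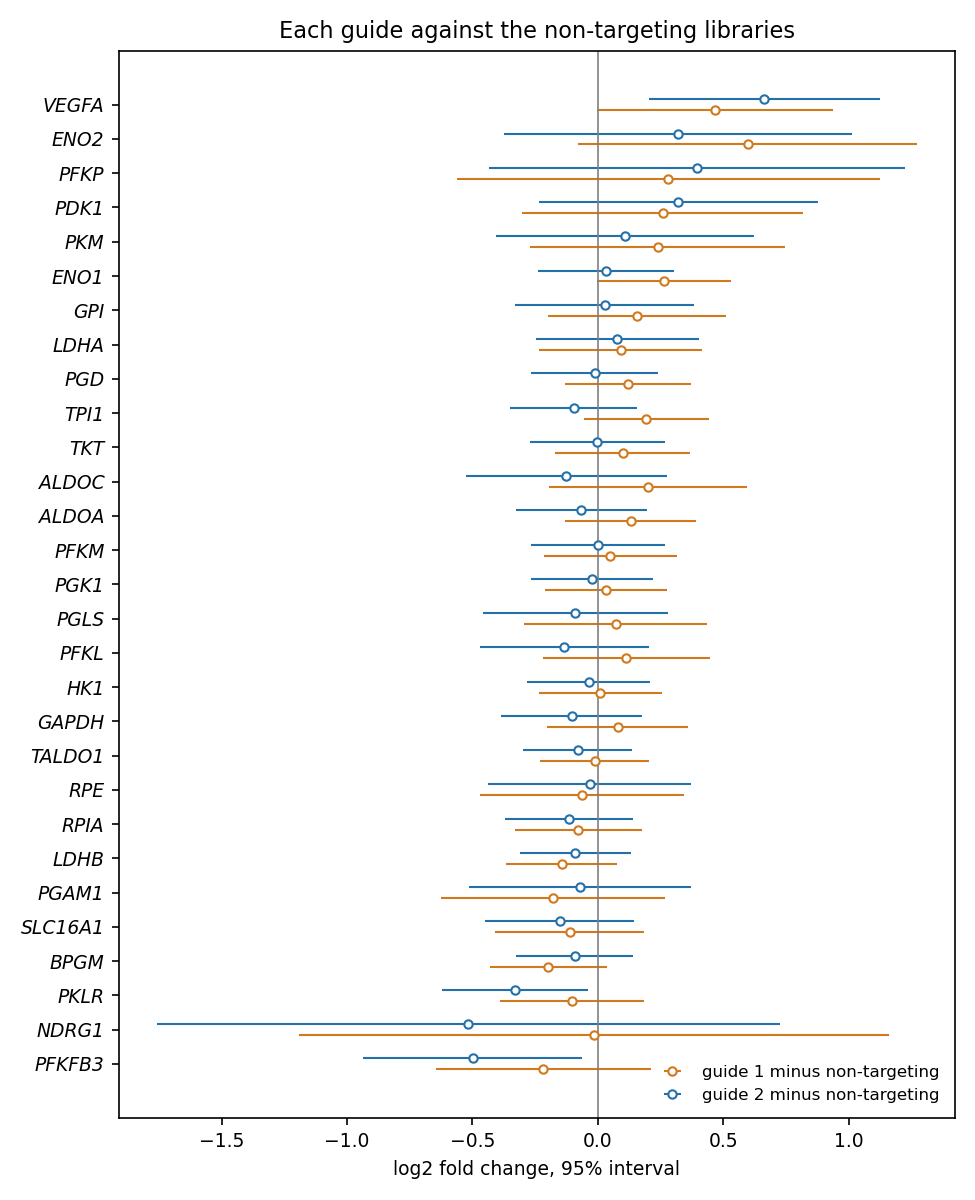
Log2 fold change of the 29 tested genes with guide 1 (orange) and guide 2 (blue) against the non-targeting libraries, with 95% intervals from the edgeR fit; open points did not pass an adjusted p under 0.05, which is all of them. VEGFA lies at 0.47 and 0.66, PFKFB3 at -0.22 and -0.50, and NDRG1 has the widest intervals.

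Compared directly, guide 2 and guide 1 differed at 0 of the 29 genes (background 0%; DESeq2 also called 0), with 1 at an unadjusted p under 0.05 (background 2.86%). That gene was TPI1, at 135 ± 8.07 CPM (SD, n = 2) with guide 2 and 165 ± 4.18 CPM (SD, n = 2) with guide 1, a log2 difference of -0.29 (SE 0.13, 95% interval -0.57 to -0.015) (unadjusted p = 0.0404, adjusted p = 0.983, edgeR). ENO1 (-0.23, SE 0.14), ALDOC (-0.32, SE 0.20) and PKLR (-0.23, SE 0.15) followed. Guide 2 was the lower for 22 of the 29 genes, with 7 positive (24.1%; background 50.3%), and the median was -0.10 against 0.0015 over all genes. Of the 13 erythroid markers, 10 were lower with guide 2 without overlap (background 22.2%) and 3 higher without overlap (background 21.9%). Their median was -0.12. Also lower without overlap (background 22.2%) were both tested megakaryocyte markers (median -0.24) and the 1 tested mast cell marker (-0.44, unadjusted p = 0.043, adjusted p = 0.983, edgeR). None of these markers was called, and their part in the tilt was not tested. Against the controls, 1 of the 13 erythroid markers was positive with guide 2 (background 44.7%, median -0.084). There were 8 positive with guide 1 (background 48.5%, median 0.033) and 3 with both guides (background 46.1%, median -0.033). In turn, 3, 1 and 3 had an unadjusted p under 0.05 (edgeR, background 2.75%, 4.78% and 4.19%), none called. Their part in the PKLR values was not tested. Both guide 2 libraries lay below both guide 1 libraries for 11 genes (37.9%; background 22.2%), among them ALDOA, ALDOC, TPI1, GAPDH, ENO1, PFKL and PKLR, and above them for VEGFA and LDHB (6.9%; background 21.9%), which makes 13 genes with separate groups (background 44.1%). The median was -0.049 without guide 2 replicate 2 and -0.035 with total counts in place of TMM, where 16 of 29 were lower with guide 2 (19 with totals less the globin genes).

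Ratios of isozymes, and of BPGM to its relative PGAM1, need no scaling when taken within a library. They were tested with an exact two-sided permutation test of 4 guide libraries against 3 controls, whose smallest possible p is 0.0571. None of 7 ratios could therefore pass 0.05, and HK2/HK1 was left out because HK2 had counts of 0. On the log2 scale PKLR/PKM differed by -0.41 (p = 0.171), LDHB/LDHA by -0.20 (p = 0.114), ENO2/ENO1 by 0.30 (p = 0.114) and PFKP/PFKL by 0.39 (p = 0.171), each with exact permutation p and an adjusted p of 0.3 over the 7 ratios. PFKM/PFKL (0.025), ALDOC/ALDOA (0.015) and BPGM/PGAM1 (-0.031) differed by less than 1 SD of the controls, as did PFKP/PFKL (control SD 0.403). PKLR counts were 15.0, 15.4 and 10.2 times those of PKM in the controls and 9.44 to 10.4 times with a guide, so the third control lay within the guide range.

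Related genes outside the 33 gave 0 calls in any comparison. Of 38 other genes of glucose metabolism with a row, 21 were tested, with 10 positive and a median of -0.025 for both guides; guide 1 gave 15 positive and guide 2 11. The nearest to the threshold were the glycogen phosphorylase PYGB (0.26, SE 0.12), the mitochondrial carboxykinase PCK2 (0.18, SE 0.11) and the pyruvate carrier subunit MPC2 (-0.24, SE 0.15). The oxygen-sensing machinery, with HIF subunits, prolyl hydroxylases and the VHL complex, had 14 of 15 genes tested, 6 positive, and a median of -0.021. Its examples were the cullin CUL2 (-0.18, SE 0.16), the ubiquitin ligase SIAH2 (-0.092, SE 0.11) and elongin C, TCEB1 (-0.06, SE 0.11). Of 29 other hypoxia targets, 17 were tested, 11 of them positive (6 negative), with a median of 0.06, beside -0.015 over all genes. The MYC antagonist MXI1 (-0.30, SE 0.16), the mTOR inhibitor DDIT4 (0.18, SE 0.11) and the histone demethylase KDM4B (0.31, SE 0.20) had the smallest unadjusted p of this list, from 0.0932 to 0.142, and groups overlapped for all 3.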

How the data were processed

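RNA of 7 HUDEP-2 libraries was measured by Smart-seq2 with Nextera indexing, per the labels' protocols; this chemistry does not mark strand and has no molecular identifiers. Read counts by gene symbol, unscaled and in 1 column for each library, were deposited by the authors, per the file headers. STAR and GRCh37 (hg19) are named in the submitters' processing notes; which program and annotation gave the counts, and whether reads with several alignments entered them, is not given in the sources used here. Columns were matched to samples by title.

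The tests used edgeR 4.0.16 (R 4.3.3), in which filterByExpr (minimum count 10) kept 10212 of 32738 genes, 29 of the 33 described here. After TMM scaling, a quasi-likelihood model of the 3 groups was fitted to all 7 libraries (4 residual degrees of freedom, biological coefficient of variation 12.5%). Tests were two-sided F-tests, with Benjamini-Hochberg adjustment over all tested genes and a call at an adjusted p under 0.05. Lengths are medians over GENCODE v29 transcripts; 50-base windows of each longest coding transcript were searched exactly, on both strands, in transcripts of other genes. Permutation tests used SciPy 1.17.1. Alternatives were DESeq2 1.42.0, other scaling, no filter, fits of the compared groups alone, a replicate block and leaving out each library. The fit was also run on simulated negative binomial counts with known changes. The outcome is not given here and is not used as support.

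The 33 genes and the related lists were chosen with earlier results of these data known. Values in every library are given for isozyme families, the most abundant gene of each role and the 4 genes of smallest unadjusted p in each comparison (with a group mean of 5 CPM or more); of each related list the 3 of smallest unadjusted p are named. The SLC2A1 level and the low counts of ADM were added, and the 4 promoters printed were picked, after values were seen. The floor for a count of 0 covers counting error only.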

Additional observations from a re-analysis of the deposited data

How the results depend on the processing

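The count of 0 genes called among the 29 held with DESeq2, both other scalings, no filter, fits of the compared groups alone, the replicate block and each left-out library, except without non-targeting replicate 1. There it was 1 for both guides (PKLR) and 2 for guide 2 (PKLR and PFKFB3), so leaving out each library gave ranges of 0 to 1 and 0 to 2. Over all genes, leaving out each library gave 1 to 53 calls for both guides, 1 to 59 for guide 1, 1 to 128 for guide 2 and 0 to 32 for guide 2 against guide 1, each highest without non-targeting replicate 1. Against 2, 3, 1 and 0 calls in these comparisons, no filter gave 8, 19, 4 and 2, and DESeq2 4, 7, 3 and 2. Guide 2 against guide 1 fitted alone gave 19. The cause of these differences was not tested. Without that library the guide 1 median of the 29 was -0.0082, and MPC2 (0.027), CUL2 (0.065) and TCEB1 (0.028) turned positive, none called; leaving out each library gave ranges of -0.38 to 0.027, -0.32 to 0.065 and -0.13 to 0.028.

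Deviations from group means correlated over genes at -0.25 to 0.044 between same-numbered libraries of different groups. Between other libraries of different groups they correlated at -0.13 to 0.25. In a group of 2 libraries these deviations are exact opposites, so this check cannot decide whether the numbers pair libraries. The numbers were not taken to pair them, and a replicate block served as an alternative. With a replicate block, both guides gave 1 call over all genes and guide 2 against guide 1 gave 1, PFKM/PFKL turned to -0.023 and BPGM/PGAM1 to 0.093, and no call among the 29 changed. Leaving out each library, PFKM/PFKL ran from -0.023 to 0.10, ALDOC/ALDOA from -0.050 to 0.089 and BPGM/PGAM1 from -0.13 to 0.093, which fixes no direction; the other 4 ratios kept theirs.

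By the longest transcript, mean shares per length were 99.99% for HK1, 78.1% for PFKM, 96.3% for ALDOA, 91.7% for PKLR, 93.6% for LDHB and 99.1% for BPGM. By the median of coding transcripts they were 99.99%, 83.8%, 95.3%, 89.2%, 94.2% and 99.2%, and 99.2% for ENO1. The leading gene was the same in each. The BPGM share is taken against PGAM1, a related enzyme whose level is uncertain because 43.3% of its 50-base windows occur in genes elsewhere. Of counts left after the globin genes, the 33 genes took a mean of 0.903% in the controls and 0.898% with a guide, a larger share because the denominator is smaller. Low counts, at most 85 in a library, limit VEGFA, PDK1, ENO2, PFKP and NDRG1.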
